A study of Mus musculus with 12 samples.

Results

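The insulin-like growth factor (IGF) axis and the growth hormone receptor were followed across 12 mouse livers as 9 genes, namely Ghr, Igf1, Igfals, Igfbp1, Igfbp2, Igfbp3, Igfbp4, Stat5a and Stat5b. All probes of these genes on the array were taken, which gave 16 of the 45281 probes. A probe counted as detected when its detection p-value was under 0.01 on at least 1 array. By this measure 15 of the 16 probes, from 8 genes, were detected, and the single Stat5b probe was detected in no liver.

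Gene expression was profiled on Illumina MouseWG-6 v2 BeadChips, on which each probe gives a fluorescence intensity for 1 transcript. Each of the 4 groups held 3 individual livers of mice aged 7 weeks of mixed 129/Ola × C57BL/6 strain. IDA mice were wild-type littermates kept on an iron-deficient diet for 3 weeks from 4 weeks of age, the controls with iron deficiency anemia (IDA). KO mice lacked Tmprss6, a liver serine protease that restrains production of the iron hormone hepcidin, and were fed an iron-replete diet over the same 3 weeks. In each genotype the mice received saline (IDA UT and KO UT) or 0.1 mg/kg lipopolysaccharide (LPS) of Escherichia coli O26:B6 (IDA LPS and KO LPS), and livers were taken 6 h later. Genotype and diet change together here, so their parts in any KO against IDA difference cannot be told apart.

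Between 12641 and 14423 probes were detected per liver, and the median raw intensity ran from 129.7 to 151. The knocked-out gene checked the labels, with Tmprss6 at 9.43 to 11.21 (log2 intensity) across the IDA livers against 7.72 to 8.39 where it was deleted, and all 10 hepatocyte markers were detected in every group. The methods describe KO males, yet 3 saline-treated livers, the first of IDA UT and the first and second of KO UT, had a strong signal for Xist, the RNA of the inactive X chromosome (11.84 to 12.05, against 4.80 to 6.73 in the other 9), and a low signal for the Y-linked Eif2s3y (4.80 to 4.94, against 9.27 to 10.16). Comparisons that use untreated livers were therefore also fitted with a term for strong Xist on all 12 livers, and without these 3. The removal leaves KO UT with 1 liver (KO UT 3), which then is assumed to vary like the other groups, so for comparisons with KO UT only the log2 ratio is given for it. KO UT 3 itself held the highest Xist of the other 9 livers, at 6.73, and Xist was detected in it. Its Eif2s3y was 9.68. No LPS-treated liver had strong Xist, so the log2 ratio of KO LPS over IDA LPS is free of that mixture. Its SE and p-value are not, as they draw on the spread within all 4 groups, including these 3 livers.

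Growth hormone from the pituitary binds its receptor on hepatocytes, and the kinase Jak2 then activates the transcription factors Stat5a and Stat5b, which switch on Igf1 and Igfals. Most circulating IGF-1 comes from the liver and travels in a complex with Igfbp3 and the acid-labile subunit, the product of Igfals. Other binding proteins hold smaller amounts of IGF-1, and Igfbp1 in particular is known as a gene that insulin represses and fasting raises. Cytokines made during inflammation are known to lower the response of the liver to growth hormone.

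Values below are log2 intensities after background correction and quantile normalization, differences are log2 ratios of group means with their standard error (SE), and adjusted p-values come from limma with Benjamini-Hochberg correction over 11571 features. A gene passed at an adjusted p under 0.05. The groups were compared in 4 pairs and by the interaction, which is the LPS response in KO minus the LPS response in IDA. They share groups of livers, so they are not independent of each other.

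Among the 8 measured genes, 1 was higher in KO UT than in IDA UT (background: 2.50% of all features passed in that comparison, 1.59% higher), and 1 was higher in KO LPS than in IDA LPS (background: 29.8%, 16.1% higher). After LPS 5 of the 8 fell in IDA mice (background: 47.9% in either direction, 26.0% lower and 21.9% higher) and 2 of the 8 fell in KO mice (background: 18.8% in either direction, 8.57% lower and 10.2% higher). The interaction passed for 2 of the 8, 1 above 0 and 1 below (background: 10.9%, 5.46% above 0 and 5.49% below). The median log2 ratio of the 8 genes was -0.57 for LPS in IDA mice and -0.33 for LPS in KO mice, beside -0.06 and -0.04 over all features. It was -0.19 for KO UT against IDA UT and 0.01 for KO LPS against IDA LPS, beside -0.01 and 0.02 over all features. The compared groups did not overlap for 6 of the 8 with LPS in IDA mice and 3 with LPS in KO mice, beside 56% and 37% of all features. For KO UT against IDA UT it was 3 (22.3% of all features), and for KO LPS against IDA LPS 2 (46.4%).

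**Figure D1:**
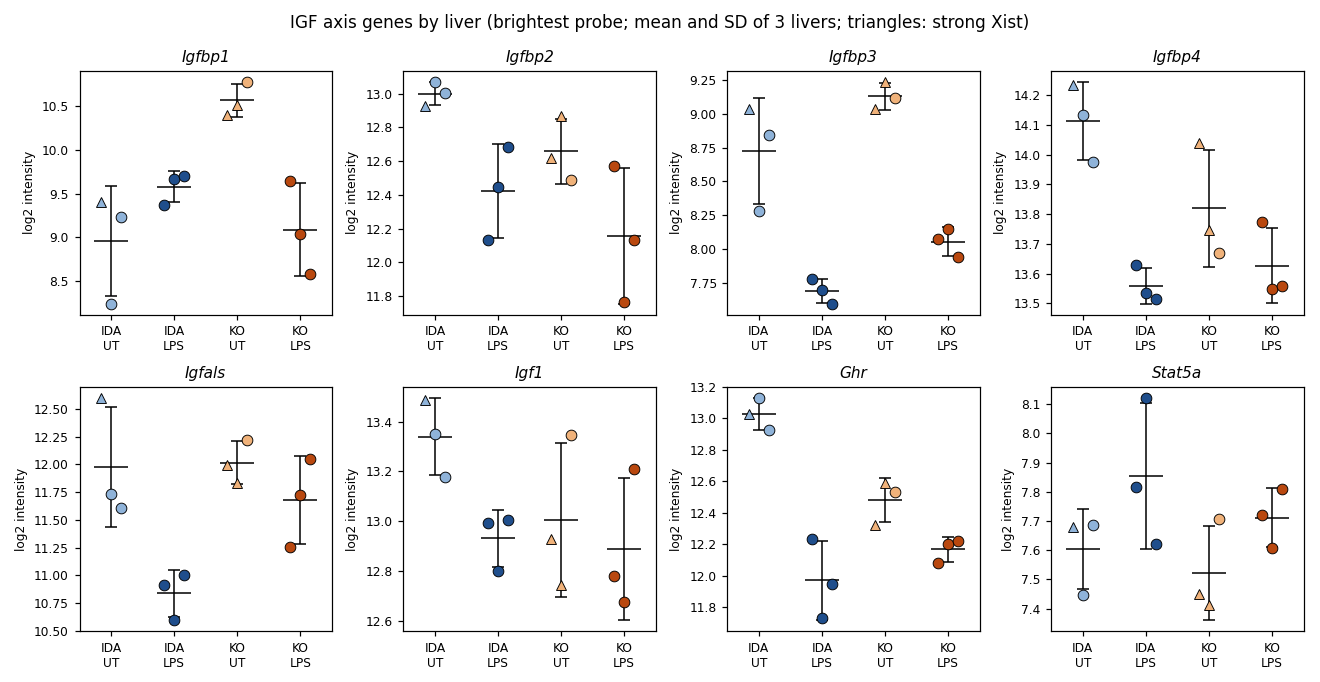
Log2 intensity of the brightest probe of the 8 measured genes (vertical axis) in each liver of the 4 groups (horizontal axis), with points for livers, triangles for livers with strong Xist, and bars for the mean and SD of 3 livers. The 3 KO UT livers lie above all other livers for Igfbp1, at 10.41 to 10.78, and the IDA LPS livers lie lowest for Igfals, at 10.60 to 11.005.

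**Figure D2:**
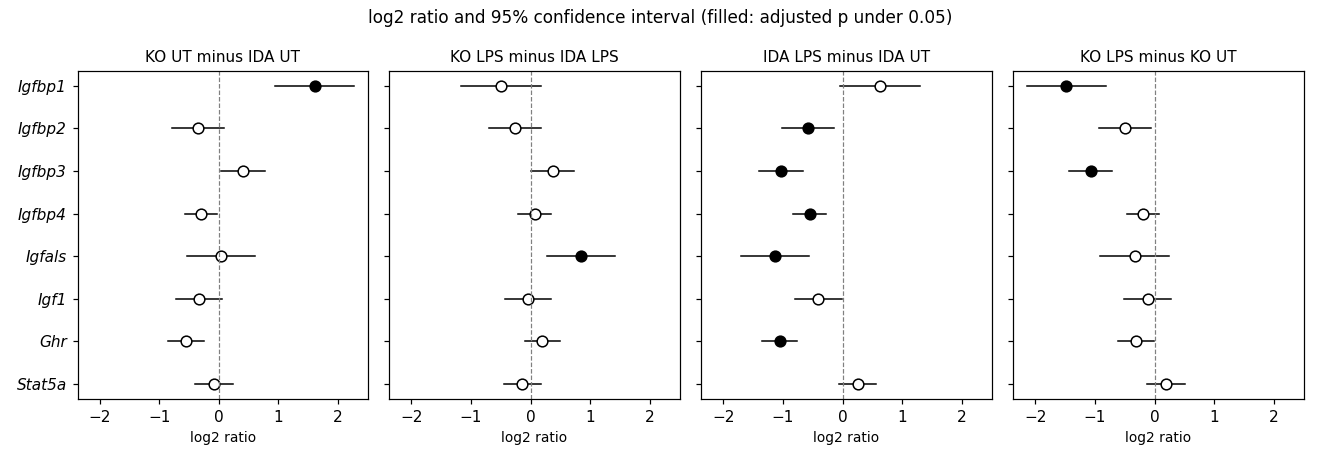
Log2 ratio of the 8 genes (horizontal axis) in the 4 pairwise comparisons, with 95% confidence intervals as lines and filled points where the adjusted p was under 0.05. In IDA mice 5 filled points lie below 0 after LPS, while in KO mice the filled points are those of Igfbp1 and Igfbp3.

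Igfbp1, on chromosome 11 (chr11:7197787-7202546, GRCm38.p6, plus strand), encodes a liver-secreted binding protein that limits free IGF-1. On the brightest probes its group means spread more widely than those of the other measured members. The 250 bases before its annotated start are shown because they hold the element through which insulin is known to act on IGFBP1 in human liver cells. The sequence (RefSeq, GRCm38.p6, chr11:7197537-7197786, plus strand) was searched on both strands for CAAAACA, and the match is in capitals. It begins 108 bases before the start.

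Igfbp1: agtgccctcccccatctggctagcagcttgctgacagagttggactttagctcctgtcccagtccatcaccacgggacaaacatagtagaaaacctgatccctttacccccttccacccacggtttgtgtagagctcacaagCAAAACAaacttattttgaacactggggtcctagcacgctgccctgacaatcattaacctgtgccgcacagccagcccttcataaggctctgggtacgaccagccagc

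The same letters were present in 5.56% of 32851 RefSeq mouse windows of this length, and a match is a description of sequence only. None of the other 14 windows of the 9 genes held it.

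In untreated livers Igfbp1 measured 9.41, 8.24 and 9.23 in IDA UT 1, 2 and 3. The KO UT livers measured 10.41, 10.52 and 10.78. All 3 KO UT livers were above all 3 IDA UT livers. The highest of them was KO UT 3, whose Xist was detected at 6.73 but not strong. The log2 ratio of KO UT over IDA UT was 1.61 (SE 0.31, 95% confidence interval 0.94 to 2.28, adjusted p = 0.0229), a 3.05-fold higher intensity. This call rested on few livers. The adjusted p rose to 0.0528 without IDA UT 2, where the log2 ratio was 1.25, to 0.0718 without KO UT 2 and to 0.072 without KO UT 3. With a term for strong Xist the log2 ratio was 1.55 (adjusted p = 0.0476), and KO UT 3 alone lay 2.04 above the mean of IDA UT 2 and 3.

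After LPS the order changed. Igfbp1 was 9.38, 9.67 and 9.70 in the IDA LPS livers and 9.64, 9.03 and 8.59 in the KO LPS livers, and these 2 groups overlapped. In KO mice every LPS liver was below every untreated one, with a log2 ratio of -1.48 (95% confidence interval -2.15 to -0.81, adjusted p = 0.00579), or 2.79-fold lower. In IDA mice the log2 ratio was 0.62, with an interval of -0.05 to 1.29 (adjusted p = 0.115) and overlapping groups. The overlap came from IDA UT 1, a liver with strong Xist, at 9.41 against 9.38 in IDA LPS 1. With each liver left out the log2 ratio in IDA mice was 0.26 to 0.85 (lowest adjusted p 0.0517). The interaction was -2.10 (SE 0.43, adjusted p = 0.0121). It stayed under the threshold with each liver left out in turn, with values of -2.38 to -1.74, and with a term for strong Xist, at -2.04 (adjusted p = 0.021). The fall in KO mice also kept its call with each liver left out and with a term for strong Xist, at -1.36 (adjusted p = 0.0441). Without the livers with strong Xist these values were -2.54 and -1.69, from 1 KO UT liver. Between KO LPS and IDA LPS the log2 ratio was -0.49 (adjusted p = 0.245).

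Igfbp3, next to Igfbp1 on chromosome 11 (chr11:7206086-7215498, minus strand), encodes the main carrier of IGF-1 in blood. In the liver it is known mainly from non-parenchymal cells, including the endothelium. It was 9.04, 8.28 and 8.84 in the IDA UT livers and 7.78, 7.70 and 7.60 in the IDA LPS livers. In KO mice it was 9.04, 9.24 and 9.12 untreated and 8.08, 8.15 and 7.94 after LPS. In both genotypes the LPS-treated livers lay wholly below the untreated ones.

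Igfbp3 fell by 1.03 on the log2 scale in IDA mice (SE 0.17, adjusted p = 0.000369) and by 1.07 in KO mice (adjusted p = 0.00107), changes of 2.05-fold and 2.11-fold. Both calls were kept with each liver left out in turn. The difference between these responses was -0.04, with a 95% confidence interval of -0.56 to 0.48 (adjusted p = 0.936). The second Igfbp3 probe, fitted with all 16286 detected probes as single features, gave log2 ratios of -1.04 in IDA (adjusted p = 0.00284) and -1.22 in KO mice (adjusted p = 0.00355). Background for single probes was 46.7% and 17.8% passing in these comparisons. KO LPS was 0.37 above IDA LPS on the brightest probe without passing (adjusted p = 0.119).

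These are whole livers, where fewer cells of a type and less RNA per cell cannot be told apart. Endothelial markers were read beside Igfbp3. Of 12 measured, 8 fell and 1 rose after LPS in IDA mice, and 5 fell in KO mice. Over all features 26.0% fell and 21.9% rose in IDA mice, and 8.57% fell and 10.2% rose in KO mice. Their summed intensity was 11800 to 14600 in IDA UT, 4840 to 5900 in IDA LPS, 13700 to 16500 in KO UT and 8670 to 9750 in KO LPS, with Flt4 undetected in IDA UT, IDA LPS and KO LPS. The Kupffer cell markers summed to 7420 to 9420, 3850 to 4670, 7910 to 8360 and 5420 to 8670 in the same order, with Cd163 undetected after LPS. Of 11 Kupffer cell markers measured, 8 fell and 1 rose in IDA mice, and 3 fell and 1 rose in KO mice. The 10 hepatocyte markers summed to 274000 to 296000 in IDA UT, 231000 to 241000 in IDA LPS, 255000 to 287000 in KO UT and 228000 to 243000 in KO LPS, with 5 lower after LPS in IDA and 3 in KO mice. The part of these cells in the change of Igfbp3 was not tested.

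Igfbp2 (chr1:72824480-72852474), another binding protein made by hepatocytes, was 12.93, 13.07 and 13.01 in IDA UT and 12.13, 12.45 and 12.69 in IDA LPS livers. The groups did not overlap, and the log2 ratio was -0.58 (adjusted p = 0.0309). The call ended without IDA LPS 1, at -0.43 (adjusted p = 0.122), and also without IDA UT 2 (0.0808), IDA UT 3 (0.0677) or IDA LPS 2 (0.0623). Without the livers with strong Xist it was -0.61 (adjusted p = 0.0648). The second Igfbp2 probe passed with a log2 ratio of -0.92 (adjusted p = 0.00276), and that call held with each liver left out in turn.

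In KO mice Igfbp2 was 12.62, 12.87 and 12.49 untreated and 12.57, 11.77 and 12.13 after LPS, and these overlapped. The log2 ratio was -0.50 (adjusted p = 0.102). Untreated KO livers all lay below untreated IDA livers, with a log2 ratio of -0.34, which did not pass (adjusted p = 0.409).

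Igfbp4 (chr11:99040005-99052655), a binding protein cleaved by the protease Pappa, measured 14.23, 14.13 and 13.97 in IDA UT and 13.63, 13.53 and 13.52 in IDA LPS livers. It fell by 0.55 on the log2 scale (adjusted p = 0.00324), a 1.47-fold change with no overlap, and the call held with each liver left out in turn. The second probe gave -0.63 (adjusted p = 0.00244). KO livers read 14.04, 13.75 and 13.67 untreated and 13.77, 13.55 and 13.56 after LPS, with overlapping ranges and a log2 ratio of -0.19 (adjusted p = 0.316). The interaction was 0.36 with an interval of -0.02 to 0.75 (adjusted p = 0.215). On the second probe the KO log2 ratio was -0.05 (adjusted p = 0.853). Its interaction was 0.58 with an interval of 0.17 to 0.997 (adjusted p = 0.0772, and 0.0354 to 0.156 with each liver left out). Neither probe passed, so unequal responses of the genotypes were not shown at this threshold.

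Igfals (chr17:24877844-24882011, plus strand) encodes the acid-labile subunit. Stat5-type elements are known to carry the growth hormone response of this gene, so its promoter sequence is shown with matches to TTCNNNGAA in capitals (RefSeq, GRCm38.p6, both strands searched). The first window is chr17:24877594-24877843 on the plus strand, with TTCTCAGAA starting 236 bases before the start. The second is a stretch inside the annotated gene, chr17:24878163-24878191, in which TTCCTAGAA starts 58 bases before another listed start.

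Igfals, first start: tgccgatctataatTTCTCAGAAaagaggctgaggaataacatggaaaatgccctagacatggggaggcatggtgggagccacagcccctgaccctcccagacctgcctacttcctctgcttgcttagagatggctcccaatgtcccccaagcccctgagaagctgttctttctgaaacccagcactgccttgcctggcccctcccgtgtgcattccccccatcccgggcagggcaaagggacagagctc

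Igfals, second start: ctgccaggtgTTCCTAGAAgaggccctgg

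TTCNNNGAA was present in 7.02% of all windows of 250 bases and in 2 of the 15 member windows, both of Igfals. Neither Ghr window and no Igf1 window held it. The forkhead letters GTAAACA (3.17% of all windows) matched only the second Igfals window among the 15.

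Igfals was 12.60, 11.73 and 11.61 in IDA UT and 10.91, 10.60 and 11.005 in IDA LPS livers. It fell by 1.14 on the log2 scale (adjusted p = 0.00376), or 2.20-fold, with every LPS-treated liver below every untreated one, and the call held with each liver left out. Without the livers with strong Xist, and so without the highest IDA UT liver, it was -0.83 (adjusted p = 0.0159). KO livers read 11.996, 11.83 and 12.22 untreated and 11.26, 11.73 and 12.05 after LPS. These overlapped, with a log2 ratio of -0.34 (95% confidence interval -0.91 to 0.24, adjusted p = 0.412).

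Untreated KO and IDA livers differed in Igfals by 0.04 (adjusted p = 0.96). Under LPS, where no liver had strong Xist, KO livers all lay above IDA livers, by 0.84 on the log2 scale (SE 0.26, adjusted p = 0.0311), or 1.79-fold. That call ended without IDA LPS 1 (0.88, adjusted p = 0.0606), IDA LPS 2 (0.72, 0.101), IDA LPS 3 (0.92, 0.0523), KO LPS 2 (0.82, 0.0781) or KO LPS 3 (0.66, 0.11). The interaction, 0.80, did not pass (adjusted p = 0.19).

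Igf1 (chr10:87858265-87937047), the growth factor itself, was 13.49, 13.35 and 13.18 in IDA UT and 12.99, 12.80 and 13.00 in IDA LPS livers. All IDA LPS livers were below all IDA UT livers, yet the log2 ratio of -0.41 did not pass (95% confidence interval -0.80 to -0.02, adjusted p = 0.0789). KO livers read 12.93, 12.74 and 13.35 untreated and 12.78, 12.67 and 13.21 after LPS, with 1 liver well above the other two in each group on this probe. Their log2 ratio was -0.12 (adjusted p = 0.696).

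The second Igf1 probe gave -0.53 for LPS in IDA mice and passed (adjusted p = 0.041), but not without IDA LPS 2, at -0.39 (adjusted p = 0.155), or IDA UT 1, at -0.43 (adjusted p = 0.13), and IDA UT 2, IDA LPS 1 and each of the 3 KO LPS livers also ended it when left out. Without the livers with strong Xist it was at an adjusted p of 0.0556. Both probes correlated at r = 0.863 over the 12 livers, though on the second probe the KO LPS livers lay close together, at 11.72 to 11.76. KO and IDA livers differed by -0.33 untreated (adjusted p = 0.362) and -0.04 after LPS (adjusted p = 0.878).

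Ghr (chr15:3317755-3583352, minus strand), the growth hormone receptor, was measured by 3 probes. On the brightest, IDA UT livers read 13.03, 13.13 and 12.92 and IDA LPS livers 12.23, 11.73 and 11.95. Ghr fell by 1.06 on the log2 scale (SE 0.14, adjusted p = 6.77e-05), or 2.08-fold, the smallest adjusted p among the members in any comparison, with no overlap and with the call kept for each liver left out.

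KO livers read 12.32, 12.59 and 12.53 untreated and 12.08, 12.20 and 12.22 after LPS. The LPS livers were again all lower, but the log2 ratio of -0.31 did not pass (adjusted p = 0.131). The interaction was 0.74 (SE 0.19, adjusted p = 0.0306). It was lost without any 1 of 7 livers, with adjusted p-values of 0.0566 to 0.0701 for log2 values of 0.62 to 0.77: IDA UT 2, IDA LPS 2, IDA LPS 3, KO UT 1, KO UT 3, KO LPS 2 and KO LPS 3. With a term for strong Xist the interaction of Ghr was 0.73 (adjusted p = 0.047), and with KO UT 3 as the 1 untreated KO liver it was 0.69.

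KO UT livers lay below IDA UT livers on this probe without overlap, with a log2 ratio of -0.55, just outside the threshold (adjusted p = 0.0586). The second Ghr probe gave a smaller fall after LPS in IDA mice, -0.49 (adjusted p = 0.0159), which ended without IDA UT 2 (-0.40, adjusted p = 0.0643) or IDA LPS 1 (-0.41, adjusted p = 0.0624). Its KO UT to IDA UT log2 ratio was -0.24 (adjusted p = 0.424), and its interaction was 0.27 (adjusted p = 0.451, where 9.81% of single probes passed).

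The third Ghr probe, annotated from a cDNA clone rather than a RefSeq transcript, ran the other way between genotypes. It read 8.03, 7.47 and 7.65 in IDA UT and 8.92, 8.54 and 8.98 in KO UT livers. After LPS it read 7.11, 7.21 and 6.27 in IDA livers, 2 of which were detected, and 8.27, 8.40 and 8.27 in KO livers. KO livers were above IDA livers without overlap in both states.

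On that probe the KO LPS to IDA LPS log2 ratio was 1.45 (adjusted p = 0.00113), a 2.73-fold higher intensity, and it held with each liver left out (1.15 to 1.62). The KO UT to IDA UT log2 ratio was 1.10 (SE 0.23, adjusted p = 0.0341), or 2.14-fold. It ended without IDA UT 2 (0.97, adjusted p = 0.127), IDA UT 3, KO UT 1, KO UT 2, KO UT 3 or KO LPS 2, and with a term for strong Xist it was 1.06 (adjusted p = 0.0706). KO UT 3 alone lay 1.42 above the mean of IDA UT 2 and 3. The single-probe background in these comparisons was 28.9% and 2.43%. After LPS the signal of this Ghr probe fell in IDA mice, with a log2 ratio of -0.85 (adjusted p = 0.0102), where it was -0.70 (adjusted p = 0.0525) without the livers with strong Xist.

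Over the 12 livers, which carry the same 4 groups for every probe, the first Ghr probe correlated with the second at r = 0.816 and with the third at r = 0.222. The second correlated with the third at r = 0.121. The probe pairs of the other members ran from 0.393 for Stat5a to 0.913 for Igfbp3.

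**Figure D3:**
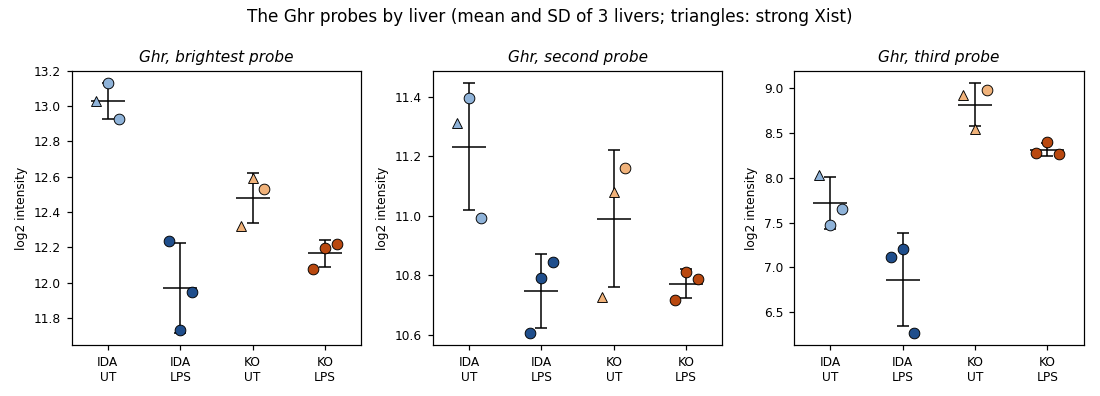
Log2 intensity (vertical axis) of the 3 Ghr probes in each liver of the 4 groups (horizontal axis), with triangles for livers with strong Xist and bars for the mean and SD of 3 livers. On the brightest probe KO UT livers, at 12.32 to 12.59, sit below the IDA UT livers, whereas on the third probe they sit above them, at 8.54 to 8.98.

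Stat5a (chr11:100859351-100885169), the transcription factor downstream of the receptor, read 7.44 to 7.69 in IDA UT, 7.62 to 8.12 in IDA LPS, 7.41 to 7.71 in KO UT and 7.61 to 7.81 in KO LPS livers. All groups overlapped and none of the 5 comparisons passed. The largest log2 ratio was 0.25, for LPS in IDA mice (95% confidence interval -0.06 to 0.56, adjusted p = 0.171). Its neighbour Stat5b (chr11:100780731-100859004), the main Stat5 form in liver, had a probe at 4.999 to 5.36 that was above background in no liver, so its level was not measured.

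Genes around the axis were taken from lists of related function. Among receptors, ligands and further binding proteins, with 6 measured of 9, 2 fell after LPS in IDA mice and 2 were higher in KO LPS than in IDA LPS livers. Over all features 26.0% fell after LPS in IDA mice and 16.1% were higher in KO LPS livers. Igf2r, the receptor that clears IGF-2, fell by 0.55 on the log2 scale (adjusted p = 0.00576), and KO LPS livers exceeded IDA LPS livers by 0.58 (adjusted p = 0.00861). Insr, the insulin receptor, fell by 0.45 (adjusted p = 0.0102). Igf1r, the receptor for IGF-1, and Igf2 were detected in none of the IDA LPS livers and in all 3 KO LPS livers, and passed in no comparison. Both lay near the detection limit. Igf2 overlapped, at 6.51, 6.49 and 6.34 in IDA LPS and 6.74, 6.39 and 6.43 in KO LPS livers. Igf1r read 6.08, 6.39 and 5.74 in IDA LPS and 7.13, 6.68 and 6.42 in KO LPS livers. Igfbp7, a vascular binding protein, was 0.54 higher in KO LPS livers (adjusted p = 0.0197), a call lost without IDA LPS 1 or KO LPS 1 (lowest log2 ratio 0.44). Igfbp5 fell by 1.25 after LPS in KO mice (adjusted p = 0.0428), which ended without IDA UT 3, IDA LPS 1, KO UT 2, KO UT 3, KO LPS 2 or KO LPS 3 (highest adjusted p 0.143).

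Of the signalling and feedback genes of the growth hormone receptor, 10 of 13 were measured. After LPS 6 rose and 2 fell in IDA mice, whereas 3 rose in KO mice, and 4 were lower in KO LPS than in IDA LPS livers. Over all features 21.9% rose and 26.0% fell in IDA mice, 10.2% rose in KO mice and 13.7% were lower in KO LPS livers. Cish, an inhibitor induced by Stat5, stood at 8.82, 8.43 and 8.19 in IDA UT and 11.83, 12.27 and 11.88 in IDA LPS livers. KO livers held 10.24, 9.62 and 9.18 untreated and 8.70, 9.38 and 9.46 after LPS. The LPS-treated IDA livers stood above all others.

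Cish rose by 3.52 in IDA mice (adjusted p = 1.91e-06) and changed by -0.50 in KO mice (adjusted p = 0.247), with an interaction of -4.01 (adjusted p = 0.000593). The KO LPS to IDA LPS log2 ratio was -2.81 (adjusted p = 8.51e-05). Untreated, Cish was 1.20 higher in KO livers (adjusted p = 0.0478), a call kept only when IDA UT 1, KO UT 3 or KO LPS 1 was the liver left out (highest adjusted p otherwise 0.136) and lost with a term for strong Xist, at 0.99 (adjusted p = 0.0707). KO UT 3 alone lay 0.87 above the mean of IDA UT 2 and 3.

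Socs3, the cytokine-induced inhibitor of Jak kinases, rose in both genotypes, by 3.28 in IDA (adjusted p = 5.15e-05) and 1.99 in KO mice (adjusted p = 0.00543). Its KO LPS to IDA LPS log2 ratio was -1.46 (adjusted p = 0.0191), which was lost without IDA LPS 2, IDA LPS 3 or KO LPS 1 (highest adjusted p 0.069). Stat3, the main factor downstream of interleukin-6, rose by 1.85 (adjusted p = 6.94e-07) and 1.24 (adjusted p = 6.27e-05). Ptpn1, a phosphatase acting on Jak2 and the insulin receptor, rose by 1.87 (adjusted p = 4.41e-06) and 0.96 (adjusted p = 0.00221). Socs2, the inhibitor whose loss is known to enlarge mice, passed in no comparison. Neutrophil marker transcripts were also read. The 5 measured of 10 summed to 14700 to 18800 in IDA LPS and 3530 to 8530 in KO LPS livers, against 559 to 1940 untreated. Ltf was undetected outside IDA LPS, Csf3r in IDA UT and Retnlg in KO UT. The part of neutrophils in the rise of Socs3 and Stat3 was not tested.

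In insulin and IGF receptor signalling, 11 of 12 were measured, of which 1 rose and 3 fell after LPS in IDA mice and 6 fell in KO mice. Over all features 21.9% rose and 26.0% fell in IDA mice, and 8.57% fell in KO mice. The counts of this list include Pdk1, which fell in both genotypes. In mouse nomenclature Pdk1 is pyruvate dehydrogenase kinase, and so regulates glucose oxidation and not this receptor signalling. Its log2 ratio was -1.65 in IDA mice (adjusted p = 7.93e-06) and -0.50 in KO mice (adjusted p = 0.0485). The call in KO mice was kept only when KO UT 2 or KO LPS 1 was the liver left out (highest adjusted p 0.16). Grb14, an adaptor that inhibits the insulin receptor, stood at 9.07, 8.96 and 8.77 in IDA UT and 7.12, 6.96 and 6.95 in IDA LPS livers. KO livers held 8.70, 8.79 and 8.75 untreated and 8.50, 8.07 and 8.16 after LPS. It fell by 1.93 in IDA mice (adjusted p = 5.67e-07) and by 0.51 in KO mice (adjusted p = 0.0178, lost without KO UT 2, KO UT 3, KO LPS 2 or KO LPS 3, and at -0.44 with an adjusted p of 0.108 with a term for strong Xist), and the interaction was 1.42 (adjusted p = 0.0014).

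Foxo1, a factor that acts on the Igfbp1 promoter when insulin is low, fell by 0.75 in IDA (adjusted p = 0.00123) and 0.91 in KO mice (adjusted p = 0.0013). Foxo3, its relative, fell by 1.75 after LPS in KO mice (adjusted p = 0.00652). Irs2, the insulin receptor substrate repressed by insulin, shared the high untreated KO levels of Igfbp1, with 11.34, 11.17 and 11.37 in KO UT and 10.22, 9.25 and 8.50 in IDA UT livers. Its log2 ratio was 1.97 (adjusted p = 0.0386), kept only when IDA UT 1, KO LPS 1 or KO LPS 2 was the liver left out (highest adjusted p otherwise 0.118), and 1.77 (adjusted p = 0.0756) with a term for strong Xist. KO UT 3 alone lay 2.50 above the mean of IDA UT 2 and 3. The Irs2 interaction was -2.50 (adjusted p = 0.0262), lost without IDA UT 2, IDA LPS 2, IDA LPS 3, KO UT 3, KO LPS 2 or KO LPS 3 (highest adjusted p 0.0605).

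Proteases of binding proteins and their inhibitors were represented by 2 of 4 genes. Stc1, which inhibits the Igfbp4 protease Pappa, was lower in KO LPS than in IDA LPS livers, with a log2 ratio of -2.53 (adjusted p = 0.000233), with no overlap, and that call held with each liver left out. It was 0.89 higher after LPS in IDA mice (adjusted p = 0.0333), which was lost without IDA UT 1, IDA UT 2, IDA LPS 1 or IDA LPS 3 (highest adjusted p 0.101).

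**Figure D4:**
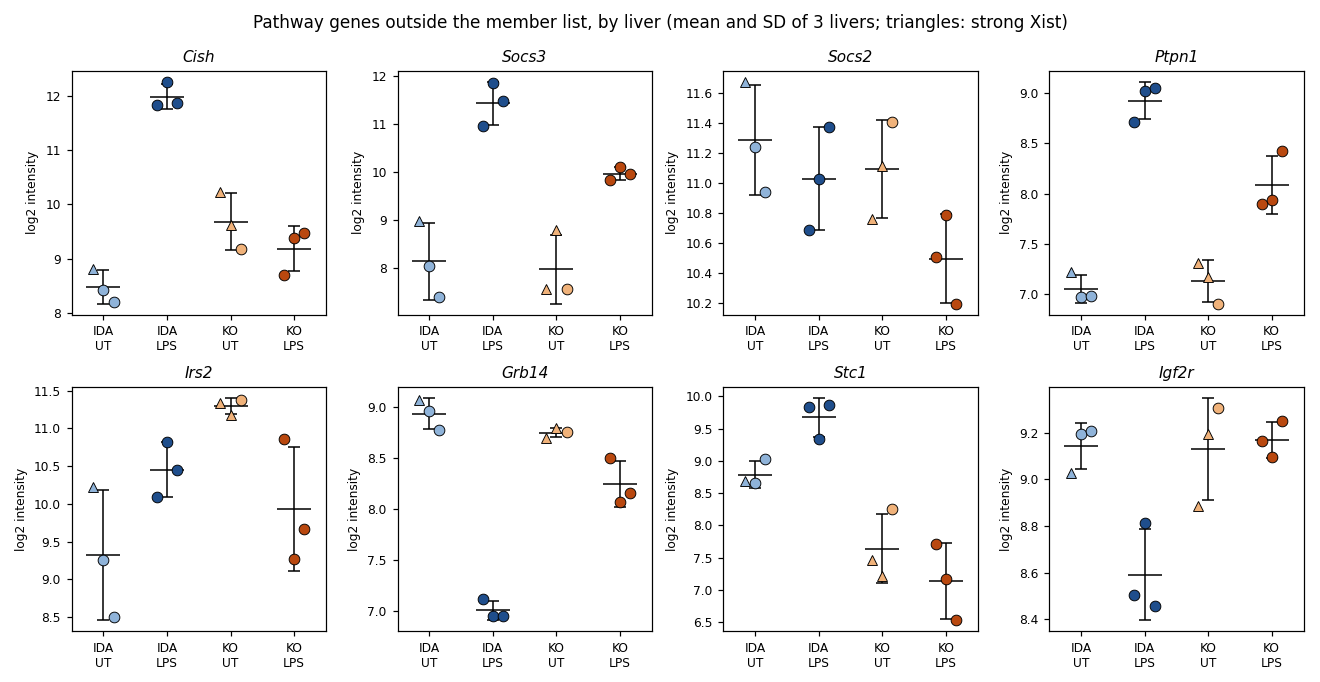
Log2 intensity (vertical axis) of 8 pathway genes outside the 9 members in each liver of the 4 groups (horizontal axis), with triangles for livers with strong Xist and bars for the mean and SD of 3 livers. Cish is highest in the IDA LPS livers, at 11.83 to 12.27, where Grb14 is lowest, at 6.95 to 7.12.

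Liver genes known to depend on the sex pattern of growth hormone were read where no liver had strong Xist, between KO LPS and IDA LPS. The p-values still draw on the spread within all 4 groups, untreated livers with strong Xist included. Of 15 measured female-biased genes, 8 were higher in KO LPS livers and the other 7 did not pass (median log2 ratio 2.05). Of 15 male-biased genes 2 were higher and 1 lower (median log2 ratio -1.15). Over all features 16.1% were higher and 13.7% lower in this comparison. The 8 included Acot3, a peroxisomal thioesterase (log2 ratio 2.96, adjusted p = 0.000387) and A1bg (4.14, adjusted p = 0.00638), both kept with each liver left out. The P450 gene Cyp2b9 was 4.54 higher (adjusted p = 0.0189), which was lost without KO LPS 1 (adjusted p up to 0.057). It read 11.16, 12.28 and 5.48 in the IDA LPS livers, 2 of 3 detected, and 13.90 to 14.53 in KO LPS livers. With each liver left out Cyp2b9 was 2.47 to 5.86 higher. Its relative Cyp2b13 was 4.45 higher (adjusted p = 0.0196), with 1 of 3 IDA LPS livers detected, which was lost without IDA LPS 1, IDA LPS 3 or KO LPS 1 (adjusted p up to 0.0759). Cux2, a female-biased repressor, was detected in no IDA LPS liver and was at least 2.02-fold higher in KO LPS livers (adjusted p = 0.00106, a bound from the dimmest detected signal of each array). Egfr, a male-biased receptor, had a log2 ratio of -1.22 (adjusted p = 0.00265). The 2 male-biased genes higher in KO LPS livers were Selenbp2, by 0.65 (adjusted p = 0.0219), and Hsd3b2, by 0.63 (adjusted p = 0.0245). Selenbp2 lost its call without IDA LPS 3, KO LPS 1 or KO LPS 2. For Hsd3b2 this happened without IDA LPS 1, IDA LPS 2, KO LPS 2 or KO LPS 3. Nr1i3, the nuclear receptor CAR, which drives Cyp2b genes, was 1.65 higher (adjusted p = 0.000266). Cux2 and Nr1i3 belong to a list of transcription factors regulated by growth hormone. Of its 10 measured genes 3 were higher and 1 lower in KO LPS livers. The lower was Foxa3, at 13.69, 13.60 and 13.84 in IDA LPS and 13.04, 13.03 and 12.805 in KO LPS livers. That call held with each liver left out (log2 ratio -0.81 to -0.68). Foxa3 was also lower in KO UT than in IDA UT livers, which include those with strong Xist (log2 ratio -0.78, adjusted p = 0.00899). The untreated call too held with each liver left out.

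Genes with the profile most like a member were ranked by Pearson correlation over the 12 livers, as a description of livers that share the same 4 groups. Ghr was closest to Ugt2b36, a glucuronosyltransferase (r = 0.977), and Irf2 (0.973). Igfals was closest to Pcolce2 (0.958), and Igfbp3 to Acot1, a cytosolic thioesterase (0.973). For Igfbp1 the closest were Itpkb, a kinase of inositol trisphosphate (0.907), Plk3 (0.887) and Hilpda, a lipid droplet protein induced by hypoxia (0.881). Igfbp2 was closest to Epas1, which encodes a hypoxia-inducible factor (0.911), Igfbp4 to Micos10 (0.946), Stat5a to Fam174c (0.928) and Igf1 to Cln3 (0.865). Among the members themselves Ghr and Igfbp4 correlated at 0.820, Igfals and Igfbp3 at 0.759, and Igfbp1 and Ghr at -0.221.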

How the data were processed

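Liver RNA of 12 mice was hybridized to Illumina MouseWG-6 v2 BeadChips and scanned, and the authors summarized the beads in GenomeStudio. The deposited table holds non-normalized average signal intensity per probe with a detection p-value, and a second deposited table holds intensity after the authors' cubic spline normalization. The version of GenomeStudio is not given in the sources used here. A BeadChip takes several arrays, but which array lay on which chip is not given either, so a chip effect could not be tested. No column of authors' comparisons was used, and coverage or depth does not apply, so the number of arrays limits the precision.

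Intensities were background-corrected with normexp on negative probes inferred from detection p-values, given an offset of 16, quantile-normalized and log2-transformed (neqc, limma 3.58.1, R 4.3.3). Probes with a detection p-value under 0.01 on at least 1 array were kept (16286). Of 45281 probes, 34885 had 1 gene symbol, 18 several and 10378 none in the platform annotation, and symbols were updated through RefSeq. The brightest probe of each symbol and the unnamed probes gave 11571 features (9307 named genes and 2264 unnamed probes). limma fitted 4 group means with lmFit and eBayes, and p-values were adjusted by Benjamini-Hochberg over all features. Further probes of a gene were read from the same fit on all 16286 probes. The scripts were first tested on simulated data.

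Samples were grouped by their labels. Genes named beyond the 9 members were drawn from those of each related list that passed, with large log2 ratios preferred, at most 4 per list and comparison. Not all such genes and comparisons were named. Trib3 for LPS in KO mice and the Irs2 responses to LPS were among those left out. Socs2, Igf1r and Igf2, which passed nowhere, were added after their values were seen. For each member the 3 most alike genes by correlation were ranked. The members and lists were chosen with earlier results of these data known. A fold against a probe undetected in a whole group is a lower bound. The labels do not say that same replicate numbers pair livers, and the main fit used no pairing. Over 18 same-number pairs the correlation of deviations ran from -0.11 to 0.24, with 3 over 0.1. Sequences came from RefSeq windows of GRCm38.p6 (15 windows for the 9 members). Plots used matplotlib 3.10.9 under Python 3.11.15.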

Additional observations from a re-analysis of the deposited data

Results flagged for a closer look

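The LPS response differed between KO and IDA mice for 2 members, by the interaction term in limma. For Igfbp1 the interaction was -2.10 on the log2 scale (adjusted p = 0.0121), with all 3 KO LPS livers below the KO UT livers. The IDA groups overlapped, through IDA UT 1, a liver with strong Xist. For Ghr the interaction was 0.74 (adjusted p = 0.0306) on the brightest probe, and lost without any 1 of 7 livers. The second Ghr probe gave 0.27 (adjusted p = 0.451) and the third 0.35 (adjusted p = 0.544). Groups of 3 livers were not tested for single outlying livers.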

How the results depend on the processing

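Of the members' values under the alternatives tried, 986 kept their side of the threshold, 13 newly passed and 33 no longer passed. None that passed in either fit reversed direction. Values that passed in neither fit could change sign and still count among the 986. Igfals in KO UT against IDA UT, for example, ran from -0.15 to 0.35 with each liver left out. For KO UT against IDA UT, the count of members past the threshold was 2 in place of 1 with the authors' intensities, without background correction, with an offset of 50, without the detection filter and with a trended robust fit (the addition being Ghr lower on the brightest probe, at an adjusted p of 0.0385 with the authors' intensities). It was also 2 with all probes, where the addition was the third Ghr probe, higher. It was 0 with only the 2 compared groups or without the 3 livers with strong Xist. For KO LPS against IDA LPS the members counted 2 in place of 1 with all probes (again the third Ghr probe) or the mean of a gene's probes (mean Ghr log2 ratio 0.56, adjusted p = 0.00433) and 0 with an added limit of 1 on the absolute log2 ratio. That limit left 3 of the 5 members for LPS in IDA mice and 1 of 2 for the interaction. Without the livers with strong Xist, which leaves KO UT with 1 liver, 1 of 2 members was left for LPS in KO mice and 1 of 2 for the interaction, and the mean of probes also left 1 there. With a term for strong Xist the members past the threshold numbered 1, 1, 4, 2 and 2, and with each liver left out in turn the members past the threshold numbered 0 to 2, 0 to 2, 4 to 5, 2 to 3 and 1 to 2 in the order KO UT against IDA UT, KO LPS against IDA LPS, LPS in IDA, LPS in KO, and interaction. Alternatives for further probes of the members were added after seeing the data.

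Whether replicate numbers pair the livers is not given and was not settled here. Of 12 livers, 7 lay closest to their own number, and 3 of 18 same-number pairs correlated above 0.1. With the replicate number as a block, 1 member in place of 2 passed for the interaction (Ghr at an adjusted p of 0.0559), and Igfbp2 after LPS in IDA mice was at 0.0524. Groups of 3 arrays and probes near background, such as the third Ghr probe and Stat5b, limit the precision.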
